A study of Mus musculus with 8 samples.

Results

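The genes described here encode 10 factors of fibrinolysis and blood coagulation, Plat, Plau, Plaur, Anxa2, Serpinf1, F3, Tfpi, Thbd, F2r and F13a1, and are 10 of the 22180 genes tested. They were chosen by name, with earlier results of these data known, so the counts of called genes below are a description. Each had exactly 1 probe set annotated to it alone, so no choice among probe sets was needed. The cells were lung mesenchymal cells from C57BL/6J mice, 11 weeks old and housed free of specific pathogens. Control mice received phosphate-buffered saline and the others bleomycin, a DNA-damaging antibiotic used to injure the lung and provoke fibrosis, both through the trachea. Cells lacking CD45, CD31 and EpCAM, the surface antigens of leukocytes, endothelium and epithelium, were sorted on day 10, and their RNA was hybridised to 4 control and 4 bleomycin arrays. The labels name no dose and do not tie a replicate to an animal, so the p-values rest on the spread among these 8 samples alone, and that spread may be technical.

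Fibrinolysis is the breakdown of fibrin by plasmin, which is made from its precursor plasminogen by the activators tPA, encoded by Plat, and uPA, encoded by Plau. uPA works at the cell surface on its receptor, encoded by Plaur, and annexin A2 is a surface docking site for plasminogen and tPA. Coagulation runs the other way: tissue factor, encoded by F3, starts the cascade that makes thrombin, TFPI blocks that start, and thrombomodulin, encoded by Thbd, turns thrombin from a clotting enzyme into an activator of the anticoagulant protein C. In injured lung, fibrin gathers in the airspaces, and its persistence has long been linked to scarring.

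Both plasminogen activators and the uPA receptor rose in the bleomycin samples, and thrombomodulin and the serpin gene Serpinf1 fell. Tissue factor fell too, but its call was kept in only 2 of the 8 fits that left out 1 array. Of the 10 genes, 3 rose and 3 fell (limma, Benjamini-Hochberg adjusted p under 0.05 over all 22180 genes). Across all tested genes 9.12% were called higher and 8.24% lower. With each array centred on its median, 1623 genes were higher and 2314 lower, against 2022 and 1828 as deposited, and the same 6 of the 10 genes were called in the same directions. With the dimmest 50% of genes left out, 9 of the 10 genes remained, 4 of them called higher and 3 lower. Of all genes kept in that fit, 18.4% were called higher and 18.8% lower. The groups did not overlap in 6 of the 10 genes, against 23.5% of all tested genes. The median log2 difference of the 10 genes was -0.072, against 0.027 over all tested genes. Levels are log2 intensities, errors of levels are standard deviations over 4 arrays, and errors of differences are standard errors of the fit.

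**Figure D1:**
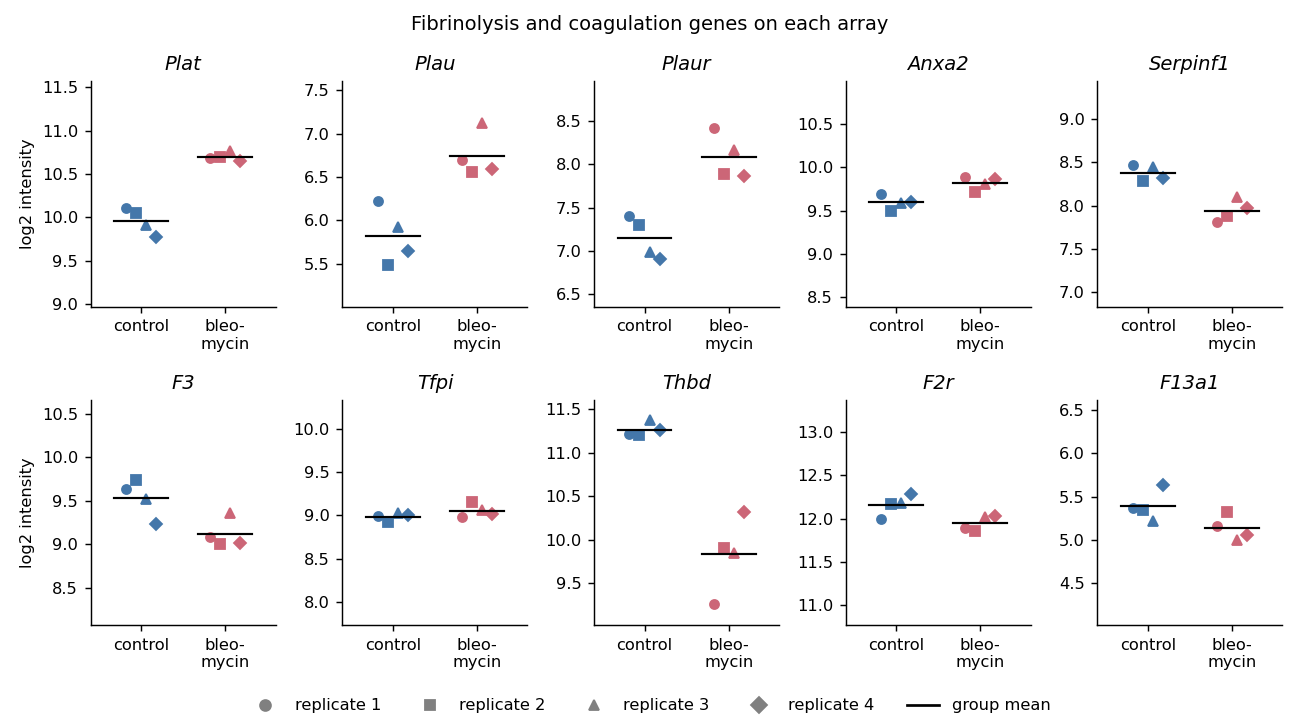
Log2 intensity of each of the 10 genes on each of the 8 arrays, with controls in blue, bleomycin in red, a symbol for each replicate number and a line at each group mean. Every panel spans the same number of log2 units. Plat, Plau and Plaur lie higher and Thbd and Serpinf1 lower on all 4 bleomycin arrays, while Tfpi stays near 9.0 throughout.

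Of 10 markers of mesenchyme 6 were higher and 2 lower in the bleomycin arrays. Pdgfra and Col1a1 were bright in both groups. Pdgfra stood at 12.58 ± 0.05 in control and 12.15 ± 0.09 in bleomycin arrays and was lower (n = 4 each, limma adjusted p = 0.00558). Col1a1 stood at 11.94 ± 0.23 and 12.77 ± 0.13 and was higher (n = 4 each, limma adjusted p = 0.00137). Thy1 was dimmer, at 5.84 ± 0.21 and 7.18 ± 0.60, and was higher too (n = 4 each, limma adjusted p = 0.00495). Markers of cells that the gate should remove were not absent. The mean level of 12 blood endothelial markers ran from 8.48 to 9.57 in control and from 7.59 to 8.07 in bleomycin arrays, and 9 of the 12 were lower. That of 12 alveolar epithelial markers ran from 8.06 to 8.91 and from 6.65 to 7.43, with 9 lower. Control replicates 1 and 2 had the higher values of both lists. That of 12 macrophage and other leukocyte markers ran from 5.93 to 6.24 and from 6.42 to 6.71, with 6 higher and none lower. In bulk RNA, fewer cells of a type and less RNA per cell cannot be told apart.

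Tissue plasminogen activator was the most evenly expressed of the activators. Plat stood at 10.10, 10.06, 9.91 and 9.78 in control replicates 1 to 4 and at 10.68, 10.69, 10.77 and 10.65 in the bleomycin replicates. The bleomycin arrays spanned only 0.12 log2 units, and the lowest of them lay above the highest control. Plat rose by 0.74 ± 0.09, or 1.67-fold (n = 4 each, limma adjusted p = 0.000569). The rise was called within replicates 1 and 2 alone (0.61, limma adjusted p = 0.041) and within replicates 3 and 4 alone (0.86, limma adjusted p = 0.035), with 2 arrays per group in each.

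Urokinase was dimmer and more variable. Plau stood at 6.23, 5.49, 5.93 and 5.65 in controls and at 6.70, 6.56, 7.13 and 6.59 after bleomycin. Control replicate 1 was the highest control, and it still lay below every bleomycin array. Plau rose by 0.92 ± 0.18, or 1.89-fold (n = 4 each, limma adjusted p = 0.00522). Within replicates 1 and 2 alone it differed by 0.77 and within replicates 3 and 4 alone by 1.07, and neither passed (limma adjusted p of 0.131 and 0.0611).

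The urokinase receptor rose by nearly the same amount as its ligand. Plaur stood at 7.40, 7.30, 6.99 and 6.90 in controls and at 8.42, 7.89, 8.16 and 7.87 after bleomycin. All bleomycin arrays were above all controls, and bleomycin replicate 1 was highest. Plaur rose by 0.94 ± 0.15, or 1.91-fold (n = 4 each, limma adjusted p = 0.00227). The difference was 0.80 within replicates 1 and 2 alone (limma adjusted p = 0.0695) and 1.07 within replicates 3 and 4 alone (limma adjusted p = 0.033). Myeloid cells also express Plaur, and 6 of the 12 macrophage and other leukocyte markers were higher in the bleomycin arrays, as given above. Among these markers the complement genes C1qb and C1qa rose by 2.02 ± 0.14 and 1.02 ± 0.11, Cd68 by 0.70 ± 0.13, Adgre1 by 0.50 ± 0.11, Itgam by 0.47 ± 0.13 and Tyrobp by 0.35 ± 0.11. Ptprc, which encodes the CD45 of the gate, stood at 6.69 ± 0.34 in control and 6.22 ± 0.04 in bleomycin arrays (limma adjusted p = 0.0529). Csf1r, Mrc1, Laptm5, Cd53 and Marco differed by 0.34, 0.20, 0.10, 0.05 and -0.03 and did not pass either. The part of the leukocyte markers in the rise of Plaur was not tested.

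Annexin A2 shifted little. Anxa2 stood at 9.69, 9.498, 9.58 and 9.60 in controls and at 9.89, 9.71, 9.80 and 9.86 after bleomycin. The groups did not overlap, but the highest control and the lowest bleomycin array were only 0.02 apart. The difference of 0.22 ± 0.08 did not pass (95% interval 0.035 to 0.41, limma adjusted p = 0.101). It passed with a trended and robust variance model (limma adjusted p = 0.0458) and with the dimmest 50% of genes left out (limma adjusted p = 0.04). S100a10, which encodes the partner of annexin A2 in the plasminogen-binding complex, differed the other way, by -0.37 ± 0.12 (limma adjusted p = 0.0676), and is named here after its values were seen. It was called lower in 1 of the 8 fits that left out 1 array (limma adjusted p = 0.0147).

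Serpinf1 encodes the pigment epithelium-derived factor, a secreted serpin that does not inhibit proteases and is known to restrain vessel growth. Its levels were 8.46, 8.28, 8.44 and 8.32 in controls and 7.81, 7.88, 8.10 and 7.97 after bleomycin. Each bleomycin array lay below each control. It fell by 0.44 ± 0.09, or 1.35-fold (n = 4 each, limma adjusted p = 0.0092). Without control replicates 1 and 2 the difference was as large, -0.44, and did not pass (limma adjusted p = 0.0569). Within replicates 1 and 2 alone it was -0.53 and within replicates 3 and 4 alone -0.35, and neither passed (limma adjusted p of 0.0767 and 0.187).

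Thrombomodulin showed the largest change of the 10 genes. Thbd stood at 11.22, 11.21, 11.38 and 11.27 in controls and at 9.25, 9.90, 9.85 and 10.31 after bleomycin. The controls spanned 0.17 log2 units and the bleomycin arrays 1.06, with replicate 1 lowest and replicate 4 nearest the controls. Thbd fell by 1.44 ± 0.18, or 2.71-fold (n = 4 each, limma adjusted p = 0.000571), the 93rd largest fall among the 22180 genes. Its 95% interval, -1.85 to -1.03, did not overlap that of any other of the 10 genes.

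Thrombomodulin is best known from endothelium, and the endothelial markers fell too. Pecam1, which encodes the CD31 of the gate, fell by 1.31 ± 0.25 and the endothelial cadherin Cdh5 by 1.03 ± 0.28. Among the controls the endothelial list mean was 9.43 on replicate 1, 9.57 on replicate 2, 8.61 on replicate 3 and 8.48 on replicate 4. Thbd on the same arrays is given above. The part of the endothelial markers in the fall of Thbd was not tested. Without control replicates 1 and 2, Thbd differed by -1.49 (limma adjusted p = 0.0093). Within replicates 1 and 2 alone it differed by -1.64 and within replicates 3 and 4 alone by -1.24 (limma adjusted p of 0.0135 and 0.0356).

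**Figure D2:**
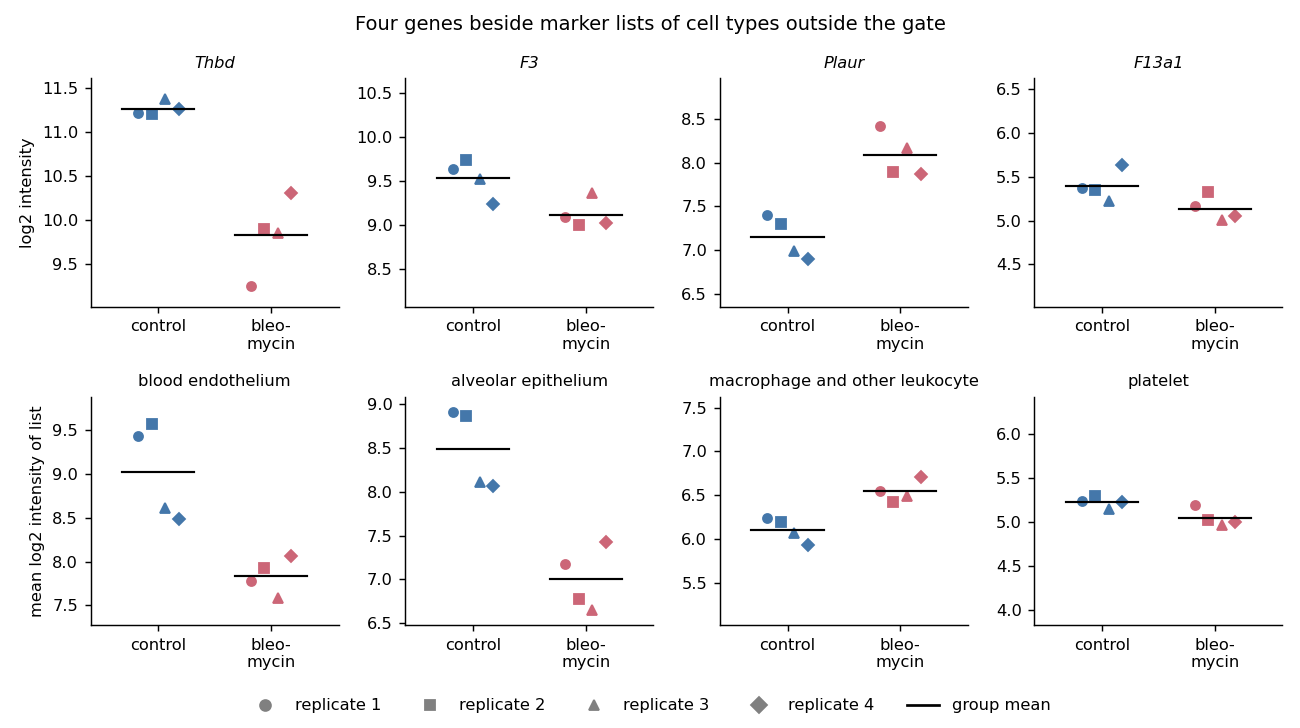
Log2 intensity of Thbd, F3, Plaur and F13a1 on each array (upper row) beside the mean log2 intensity of marker lists of 4 cell types outside the sorting gate (lower row), with controls in blue, bleomycin in red, symbols for replicate numbers and lines at group means. Control replicates 1 and 2 lie above replicates 3 and 4 in the endothelial and epithelial lists. Thbd spans 0.17 log2 units over the controls and 1.06 over the bleomycin arrays.

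Tissue factor was lower in the bleomycin samples by a small amount. F3 stood at 9.63, 9.74, 9.52 and 9.24 in controls and at 9.09, 8.996, 9.36 and 9.02 after bleomycin. The groups overlapped, since control replicate 4 lay below bleomycin replicate 3. F3 fell by 0.42 ± 0.13, or 1.34-fold (n = 4 each, limma adjusted p = 0.0474). The call was lost without any 1 of control replicates 1, 2 and 3 and bleomycin replicates 1, 2 and 4, where the adjusted p of limma lay between 0.0942 and 0.119. It was also lost with replicates 1 and 2 against 3 and 4 as a batch term (limma adjusted p = 0.0517) and with the dimmest probe set of each gene (limma adjusted p = 0.0507). Within replicates 1 and 2 alone the difference was -0.65 and passed (limma adjusted p = 0.0396). Within replicates 3 and 4 alone it was -0.19 and did not pass (limma adjusted p = 0.585). Without control replicates 1 and 2 it was -0.26 and did not pass (limma adjusted p = 0.310). Alveolar epithelium also makes tissue factor, and its markers were lower in the bleomycin arrays, as given above. Their part in the fall of F3 was not tested.

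The inhibitor of tissue factor hardly varied. Tfpi stood at 8.99, 8.92, 9.02 and 9.01 in controls and at 8.98, 9.15, 9.06 and 9.02 after bleomycin, and the groups overlapped. The difference was 0.07 ± 0.08 (limma adjusted p = 0.626), and its 95% interval of -0.11 to 0.24 bounds a rise at that upper value.

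The thrombin receptor gene F2r, which encodes the protease-activated receptor PAR1, was bright in both groups. Its levels were 11.99, 12.17, 12.18 and 12.29 in controls and 11.89, 11.86, 12.02 and 12.03 after bleomycin. Bleomycin replicates 3 and 4 lay within the control range. The difference of -0.21 ± 0.09 did not pass (95% interval -0.42 to -0.0055, limma adjusted p = 0.153).

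F13a1 encodes the A chain of factor XIII, the transglutaminase that cross-links fibrin, and is known from macrophages and platelets. It was the dimmest of the 10 genes, at 5.37, 5.35, 5.22 and 5.64 in controls and 5.16, 5.32, 5.003 and 5.06 after bleomycin. The groups overlapped, and the difference of -0.26 ± 0.11 did not pass (limma adjusted p = 0.153). Probe sets without an annotated gene had medians of 4.44 to 4.52 on the control and 4.20 to 4.35 on the bleomycin arrays, not far below. Of 7 platelet markers 2 were lower and none higher, with list means of 5.15 to 5.29 in control and 4.96 to 5.19 in bleomycin arrays. Of the 12 macrophage and other leukocyte markers 6 were higher and none lower. The part of either list in the level of F13a1 was not tested.

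**Figure D3:**
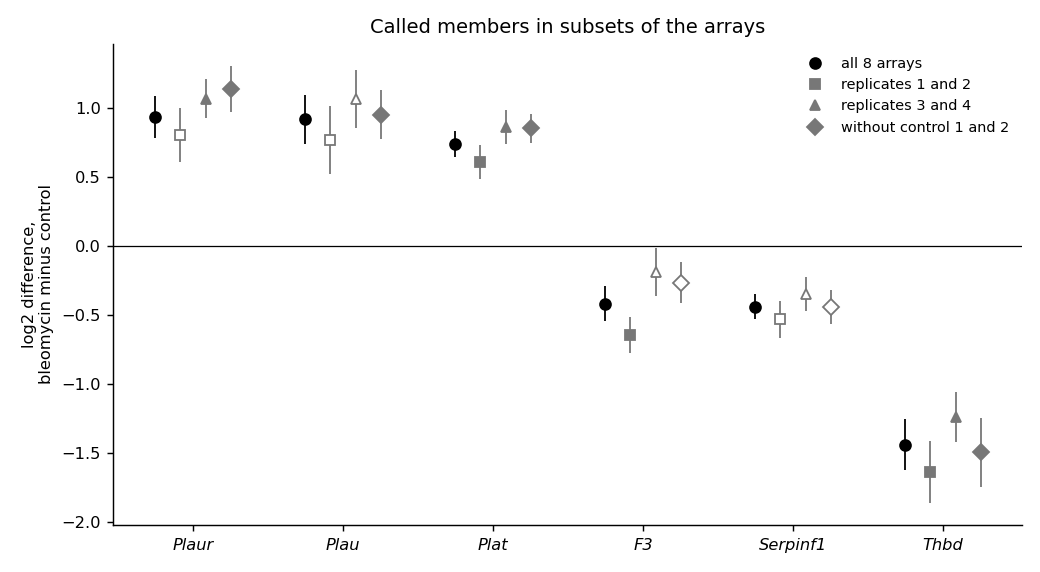
Log2 difference, bleomycin minus control, of the 6 called genes over all 8 arrays, within replicates 1 and 2, within replicates 3 and 4, and without control replicates 1 and 2; bars are standard errors of the limma fit, and filled symbols have an adjusted p under 0.05. Plat and Thbd are filled in every subset, F3 is smallest within replicates 3 and 4 at -0.19, and every difference keeps its direction.

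Factors that act on one another were then compared within arrays, which shows whether they changed unequally and not which is more abundant. The 4 pairs reported here were each tested with an exact two-sided permutation test over the 8 arrays, whose smallest possible p is 0.0286. Plau minus Plaur went from -1.32 ± 0.33 to -1.34 ± 0.28 (n = 4 each), a change of -0.02 (exact p = 0.914, adjusted p = 0.914 over the 4 pairs). Plat minus Plau went from 4.14 ± 0.30 to 3.96 ± 0.22 (n = 4 each), a change of -0.18 (exact p = 0.486, adjusted p = 0.648). No unequal change of ligand and receptor or of the activators was detected with 4 arrays a group.

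The other 2 pairs set the initiator against its inhibitor and the thrombin-binding receptors against each other. F3 minus Tfpi went from 0.55 ± 0.25 to 0.07 ± 0.19 (n = 4 each), a change of -0.48 (exact p = 0.0571, adjusted p = 0.114). F2r minus Thbd went from 0.89 ± 0.12 to 2.12 ± 0.39 (n = 4 each), a change of 1.23, and was higher on all 4 bleomycin arrays than on any control (exact p = 0.0286, adjusted p = 0.114). None passed after adjustment over the 4 pairs. A lone pair at the smallest possible p of 0.0286 has an adjusted p of 0.114, so F2r minus Thbd could not have passed by itself.

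**Figure D4:**
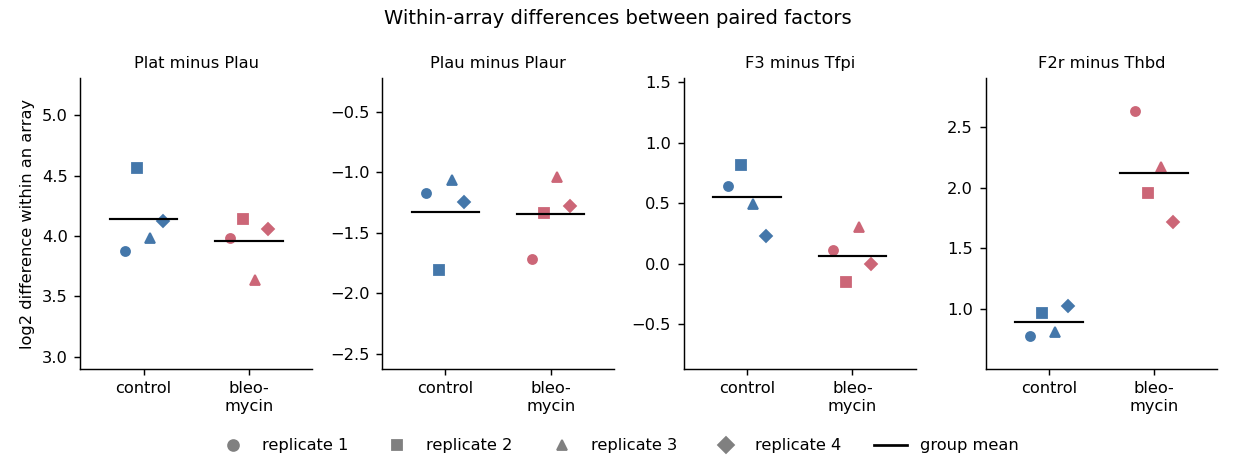
Difference between the log2 intensities of paired factors on each array, with controls in blue, bleomycin in red, symbols for replicate numbers and lines at group means, and all panels have the same span. F2r minus Thbd is between 1.72 and 2.63 on bleomycin arrays and at most 1.02 on controls, and the other pairs overlap.

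Promoter sequence was compared next, because members of the system moved in both directions. RefSeq promoter entries (build GRCm38.p6) were at hand for 7 of the 10 genes, and those of Plat, Plau and Thbd were not used here. The 250 bases before the annotated start were searched on both strands for the letters of 6 common motifs. The 7 genes had 9 such windows, 2 each for Tfpi and F13a1. A gene was counted if any of its windows matched, whereas the shares of all windows count each window. TGAGTCA, the binding motif of the Jun and Fos dimers called AP-1, stood in the windows of 4 of the 7 genes and in 4.46% of 32851 windows of the same length. The windows shown are those 4 and, for comparison, that of Serpinf1, which held none of the 6 motifs. They are written 5′ to 3′ along each gene, with AP-1 letters on either strand in capitals.
Plaur: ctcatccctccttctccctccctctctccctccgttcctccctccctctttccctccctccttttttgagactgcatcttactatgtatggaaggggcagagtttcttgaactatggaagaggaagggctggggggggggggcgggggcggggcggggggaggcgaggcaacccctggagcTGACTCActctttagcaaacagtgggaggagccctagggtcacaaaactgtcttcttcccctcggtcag
F3: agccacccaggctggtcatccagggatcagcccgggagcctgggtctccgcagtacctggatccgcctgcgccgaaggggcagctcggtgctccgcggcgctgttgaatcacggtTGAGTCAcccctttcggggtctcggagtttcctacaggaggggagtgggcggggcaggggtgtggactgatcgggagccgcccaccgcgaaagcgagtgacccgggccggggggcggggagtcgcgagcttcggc
Anxa2: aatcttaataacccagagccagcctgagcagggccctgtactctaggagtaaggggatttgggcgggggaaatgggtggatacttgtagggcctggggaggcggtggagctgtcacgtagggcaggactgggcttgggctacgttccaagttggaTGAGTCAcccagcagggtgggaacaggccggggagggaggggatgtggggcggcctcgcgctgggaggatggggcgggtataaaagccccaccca
F2r: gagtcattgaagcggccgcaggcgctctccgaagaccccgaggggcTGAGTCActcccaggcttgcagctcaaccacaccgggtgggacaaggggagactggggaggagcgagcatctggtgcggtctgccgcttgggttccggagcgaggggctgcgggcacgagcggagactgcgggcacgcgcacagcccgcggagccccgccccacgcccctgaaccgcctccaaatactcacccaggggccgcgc
Serpinf1: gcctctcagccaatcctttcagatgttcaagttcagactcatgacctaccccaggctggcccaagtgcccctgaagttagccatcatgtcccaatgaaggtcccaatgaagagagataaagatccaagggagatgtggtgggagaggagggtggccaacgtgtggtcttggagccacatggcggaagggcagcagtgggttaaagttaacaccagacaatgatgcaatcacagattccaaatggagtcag

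These windows lie at chr7:24462233-24462482 (plus strand) for Plaur, chr3:121723287-121723536 (plus strand) for F3, chr9:69453433-69453682 (plus strand) for Anxa2, chr13:95618467-95618716 (minus strand) for F2r and chr11:75422624-75422873 (minus strand) for Serpinf1. The AP-1 match began 69 bases before the start of Plaur, 135 before that of F3, 95 before that of Anxa2 and 204 before that of F2r. None of them overlapped another motif. Of these 4 genes Plaur rose, F3 fell, and Anxa2 and F2r did not pass. F3 kept its call in only 2 of the 8 fits that left out 1 array. Windows of Plat, Plau and Thbd were not searched, and a link of the letters with direction was not tested.

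GGGCGG, the motif of SP1, stood in the windows of 5 of the 7 genes, namely Plaur, F3, Anxa2, F2r and Tfpi, and in 32.7% of all windows. TATAAA stood in those of Anxa2 and Tfpi and in 12.4% of all windows, and in Anxa2 it began 17 bases before the start. The TEAD motif GGAATG, the cyclic AMP response motif TGACGTCA and the NF-kB motif GGGNNTTCC stood in none of the 7 and in 12.6%, 1.55% and 4.98% of all windows. A match is a description of the letters and not of binding.

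Of 18 other genes of the plasminogen system listed, 13 were measured, of which 3 rose (limma, adjusted over all genes), beside 9.12% of all tested genes. None fell, beside 8.24%, and the median log2 difference was 0.17, beside 0.027 over all tested genes. Among the 13 were 5 serpin genes, of which Serpini1, Serpinb2 and Serpinb8 rose, while Serpina5 and Serpinf2 differed by 0.37 and 0.12 (limma adjusted p of 0.0955 and 0.44). Serpina5, Serpinf2 and Hrg were dimmer than the median unannotated probe set in both groups. Serpini1 encodes neuroserpin, an inhibitor of tPA. It went from 3.40 ± 0.30 to 4.88 ± 0.41 and rose by 1.49 ± 0.21 (n = 4 each, limma adjusted p = 0.000907). Serpinb2 encodes the plasminogen activator inhibitor PAI-2. It stood at 2.99, 3.49, 3.08 and 3.54 in controls and at 5.44, 4.41, 4.74 and 3.92 after bleomycin, and rose by 1.35 ± 0.28 (limma adjusted p = 0.0074). The control levels of both genes were under the median of the unannotated probe sets on every control array, so the size of these rises is uncertain.

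Serpinb8, an intracellular serpin, was brighter and rose by 0.49 ± 0.11, from 7.93 to 8.42 (limma adjusted p = 0.0111). Within replicates 3 and 4 alone Serpini1, Serpinb2 and Serpinb8 differed by 1.24, 1.01 and 0.42, and none of them passed (limma adjusted p of 0.1, 0.137 and 0.149). Plasminogen itself, Plg, was dim, at 4.64 ± 0.22 in control and 4.82 ± 0.11 in bleomycin arrays (n = 4 each, limma adjusted p = 0.352).

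Of 32 other coagulation genes 31 were measured, of which 5 rose, beside 9.12% of all tested genes. None fell, beside 8.24%, and the median log2 difference was 0.19, beside 0.027. Of the 31 genes 8, Fgb and F9 among them, were dimmer than the median unannotated probe set in both groups. Tfpi2 encodes a matrix-bound relative of TFPI that inhibits plasmin. It stood at 7.44, 7.81, 7.07 and 7.45 in controls and at 10.01, 9.69, 9.56 and 9.29 after bleomycin. The lowest bleomycin array lay above the highest control by more than the spread of either group. Tfpi2 rose by 2.20 ± 0.18, or 4.58-fold (n = 4 each, limma adjusted p = 4.54e-05), and by 2.22 within replicates 1 and 2 alone and 2.17 within replicates 3 and 4 alone. Tfpi, its relative, differed by 0.07, as given above.

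Lman1, which encodes a cargo receptor that carries factors V and VIII out of the endoplasmic reticulum, rose by 0.48 ± 0.09 (limma adjusted p = 0.00407). F8, which encodes factor VIII, rose by 0.55 ± 0.11, from 5.02 ± 0.08 to 5.57 ± 0.19 (n = 4 each, limma adjusted p = 0.00603). Within replicates 3 and 4 alone Lman1 and F8 differed by 0.44 and 0.48 and did not pass (limma adjusted p of 0.132 and 0.195). Fgb, a fibrinogen chain, and F9, which encodes factor IX, rose by 0.40 and 0.37 (limma adjusted p of 0.0421 and 0.0486). Both genes were, in either group, dimmer than the median unannotated probe set. Fgb kept its call only without bleomycin replicate 2, and F9 only without control replicate 1 or bleomycin replicate 3, among the 8 fits that left out 1 array.

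F7, F10 and F2, which encode factor VII, factor X and prothrombin, did not pass with the values as deposited. They differed by 0.38 ± 0.12, 0.19 ± 0.17 and 0.20 ± 0.11 (limma adjusted p of 0.0515, 0.514 and 0.24). F7 lay near the threshold. It passed with the dimmest 30% or 50% of genes left out (limma adjusted p of 0.0308 and 0.0232), after quantile normalization (0.0267), with a trended and robust variance model (0.042), with array weights (0.0493) and without bleomycin replicate 2 or 4 (0.0382 and 0.0492). The highest adjusted p of limma, 0.338, was that within replicates 1 and 2 alone. Procr, which encodes the endothelial receptor of protein C, the substrate of the thrombin and thrombomodulin complex, differed by 0.23 ± 0.12 (limma adjusted p = 0.221). Vwf and Fgl2, named after their values were seen, differed by -0.47 ± 0.21 and -0.43 ± 0.16 (limma adjusted p of 0.163 and 0.0907). Each was called lower in 1 of the 8 fits that left out 1 array. Vwf was also called lower within replicates 1 and 2 alone (-0.84, limma adjusted p = 0.0422).

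**Figure D5:**
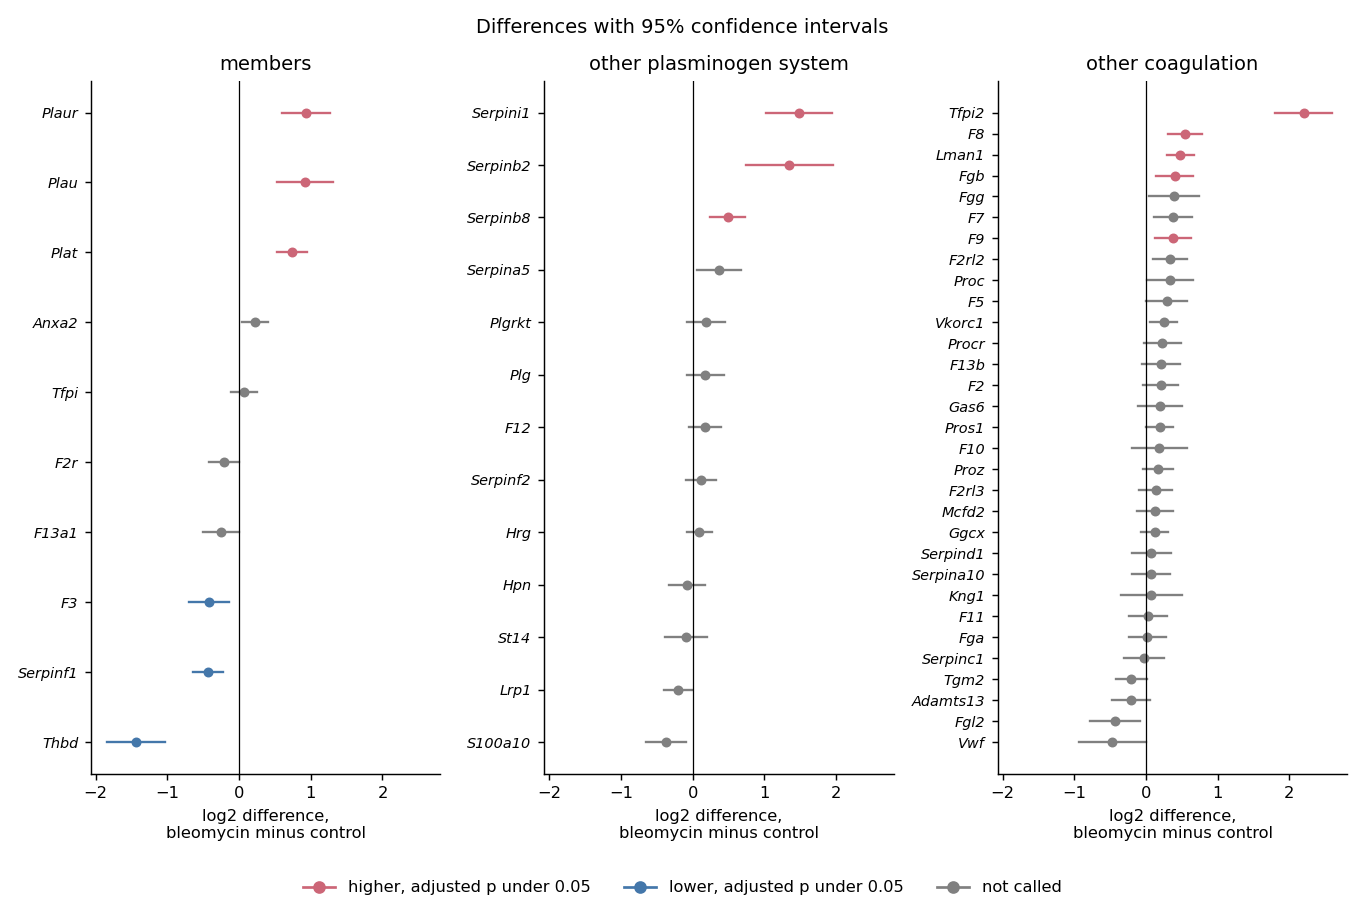
Log2 difference, bleomycin minus control, with its 95% interval from limma for the 10 genes, 13 other plasminogen system genes and 31 other coagulation genes; red and blue mark genes called higher and lower, grey those not called. Tfpi2 lies farthest to the right at 2.20 and Thbd farthest to the left at -1.44.

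Genes with the most similar course over the 8 arrays were found by the root mean square difference of profiles after each gene was centred on its own mean, as a description. The closest to Plaur was Pdlim1, at 0.04 log2 units, with a rise of 0.93. The closest to Plat was Zfp365 at 0.069, to Plau Apol9b at 0.12, and to Thbd the dipeptidase gene Dpep1 at 0.086, with a fall of 1.49. Serpinf1 was closest to Lmbrd1 at 0.054 and F3 to Olfr622 at 0.065. For the genes that did not pass, the closest were Slc35e4 for Anxa2, Fbxo45 for Tfpi, Pex7 for F2r and Naip3 for F13a1, at 0.03 to 0.05.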

How the data were processed

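The labels describe biotinylated cRNA made from 100 ng of total RNA per sample and hybridised to 1-colour arrays, with 4 control and 4 bleomycin samples grouped by their titles. In the deposited table each probe set has a value per array. The deposited values were read as log2 intensities because they span 0.24 to 13.58, and no scale is named. How the authors made these log2 values, by which correction, summarisation and normalization, is not given in the sources used here. Detection calls were not used, and precision is limited by the number of arrays.

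Of 41345 rows, 23521 carried 1 gene, 1814 several and 16010 none in the probe annotation. Rows with 1 gene were kept, the brightest per gene, and used as deposited, since the array medians of the tested genes ranged over 0.071. Over all rows they ranged over 0.109. The group difference was fitted in R 4.3.3 by limma 3.58.1 (lmFit, then eBayes). Its two-sided p-values were adjusted by Benjamini-Hochberg over 22180 genes. Pairs of genes were compared by exact permutation, with 70 splits, and 1 further planned pair is not reported here. Promoters came from RefSeq and figures from matplotlib 3.10.9.

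The genes named are the 10 factors, up to 6 called genes per list and direction, Plg, F2, F7, F10 and Procr, and the closest profiles. S100a10, Vwf, Fgl2, Serpina5, Serpinf2, Hrg and the single marker genes were named outside this rule, after their values were seen. The members and lists were chosen with earlier results of these data known. Other markers examined were 8 of mesothelium, of which 1 was lower and none higher, and 8 of pericytes and smooth muscle, of which 4 were higher and none lower. Alternatives were the replicate number or the pair of replicates as a block, subsets of arrays, quantile normalization, median centring, filters on dim genes, other probe set choices, a trended and robust eBayes and array weights.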

Additional observations from a re-analysis of the deposited data

Results flagged for a closer look

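Of 64 groups of 4 values tested for a sample far from the others, 2 stood out, and chance gives about 1 in 20. F8 on bleomycin replicate 4 was 5.28, against 5.63 to 5.70 on the other bleomycin arrays. F7 on control replicate 4 was 5.71, against 5.98 to 6.03 on the other controls. None of the 10 factors had such a sample.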

How the results depend on the processing

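The rises of Plat, Plau and Plaur and the falls of Thbd and Serpinf1 were called in each of the 8 fits that left out 1 array, and that of F3 in 2 of them. The 10 genes kept their directions in every alternative. The fits that left out 1 array gave 3 genes higher and 2 to 3 lower among the 10, and 2828 to 3870 called genes in all. In either direction they called 3 to 4 other plasminogen system genes and 3 to 6 other coagulation genes (3 without control replicate 2 or without control replicate 3). Among these were S100a10, Vwf and Fgl2, each lower in 1 of the 8 fits. Replicates 1 and 2 alone gave 1671 called genes (838 higher, 833 lower), 1 of the 10 higher (Plat) and 3 other coagulation genes. Of these F8 and Tfpi2 were higher and Vwf lower. Replicates 3 and 4 alone gave 723 (503 and 220), with 1 of the 10 lower (Thbd), 0 other plasminogen system genes and 1 other coagulation gene. Without control replicates 1 and 2 there were 2197 (1205 and 992), with 1 of the 10 lower (Thbd) and 3 other coagulation genes. These subsets hold fewer arrays. Median centring gave 3 other coagulation genes. F3 minus Tfpi was -0.75 within replicates 1 and 2 and -0.21 within replicates 3 and 4, and the cause was not tested. With 2 arrays a group, 2 against 4, or 4 pairs, the permutation test cannot pass. The replicate numbers could not be taken as pairs, since same-numbered arrays correlated by 0.063 to 0.129 in their deviations from the group means. Control and bleomycin arrays of replicates 1 and 2 all correlated positively, whatever their numbers, and so did those of replicates 3 and 4. Correlations of replicates 1 and 2 of a group with 3 and 4 of the other were all negative, from -0.140 to -0.067. The source of this split was not tested. The replicate block gave 1937 genes higher and 1838 lower and ended the call of F3 (limma adjusted p = 0.0584) and made that of F7 (limma adjusted p = 0.0478), and the pair of replicates as a batch term ended that of F3 (limma adjusted p = 0.0517).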
